A study of Mus musculus with 32 samples.

Results

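The genes of oxidative phosphorylation were followed in both genomes of the mouse cell. A gene was taken as a member when its symbol named a nuclear subunit or assembly factor of the 5 complexes (symbols starting with Nduf and a letter from a, b, c, s or v, with Cox4 to Cox8, Uqcr or Atp5, and Sdha to Sdhd, pseudogenes left out) or a protein encoded by mitochondrial DNA. The rule found 111 genes, 98 nuclear and 13 mitochondrial, of 55291 genes in the astrocyte and oligodendrocyte count tables. All 111 were also among the 53700 genes of the microglia table, and 104 were among the 17572 genes of the culture table, where Ndufa11b, Ndufs6b, Cox6a2, Cox6c2, Cox7b2, Cox8b and Cox8c were not listed. All groups carried the same genotype, TDP-43_Q331K, a mouse model of amyotrophic lateral sclerosis made with a disease mutation of TDP-43, which binds RNA. Neither the promoter of the transgene nor whether each library came from its own animal is stated in the labels, and a group without the mutation was not analysed here. Astrocytes selected with an antibody to ACSA2 were taken from cortices and spinal cords at 3 months (4 libraries), 6 months (5) and 10 months (2). Oligodendrocyte lineage cells were selected from those tissues with an antibody to O4 at 3 months (4 libraries) and 6 months (4), and Cd11b-selected microglia came from cortices alone at 3 months (3 libraries) and 10 months (4). Primary astrocytes of the same genotype, in culture for 14 days before replating, received vehicle or 40 µM Omomyc, a miniprotein that inhibits MYC, for 48 h, with 3 libraries for each. Because the labels do not say that replicates were separate animals or cultures, the p-values measure only the spread between these libraries.

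Oxidative phosphorylation passes electrons from NADH (complex I) and succinate (complex II) through complexes III and IV to oxygen, and complex V uses the resulting proton gradient to make ATP. Complexes I, III, IV and V join subunits encoded in the nucleus with subunits that mitochondrial DNA encodes and that mitochondria transcribe and translate themselves, whereas complex II is wholly nuclear. The mitochondrial messages are cut from long transcripts of each strand, and most but not all carry short poly(A) tails. A poly(A) library can therefore report messages of both genomes, though not each of them equally well. In the brain, astrocytes and oligodendrocytes both respire, and several nuclear subunits of complex IV exist as isoforms whose use differs between tissues.

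Reads of some mitochondrial members cannot be assigned by sequence alone, because a stretch of nuclear chromosome 1 holds an almost exact copy of them. In GENCODE transcripts of the GRCm38 build, copies of mt-Co2, mt-Atp6, mt-Co3, mt-Nd3 and mt-Nd4l lie on the minus strand between 24612407 and 24615565, each over 98.3% of the gene or more and with 0 mismatches. The first 60 bases of mt-Co3 (complex IV; chrM:8607-8666, plus strand) and of its copy Gm28437 (chr1:24613912-24613971, minus strand) are shown to make the ambiguity visible; capitals mark bases that the pair shares.
mt-Co3: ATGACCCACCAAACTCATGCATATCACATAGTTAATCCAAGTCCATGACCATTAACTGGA
Gm28437: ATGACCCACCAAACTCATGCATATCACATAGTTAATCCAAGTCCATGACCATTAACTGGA
The copy of mt-Nd4, a core subunit of complex I, stops after base 876 of 1378. The 60 bases around that edge (chrM:11013-11072, plus strand) show the shared part in capitals and the part found only in the mitochondrial gene in lower case.
mt-Nd4: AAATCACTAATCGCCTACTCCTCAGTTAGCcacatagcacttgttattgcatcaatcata
Another partial copy is that of mt-Co1, whose bases 1063 to 1545 match Gm29216 over 483 bases with 1 mismatch. In the astrocyte libraries the median count of mt-Co3 was 54 and that of Gm28437 was 119, whereas mt-Co1, which is mostly unique, had a median count of 163044. In the microglia libraries mt-Co3 had a median count of 0, mt-Co1 one of 1660 and mt-Nd4 one of 15097. The microglia kit reads the 3′ end, where the copied part of mt-Co1 lies, so mt-Co1 is less certain in that table. In the culture libraries the medians of mt-Co3 and Gm28437 were 33376 and 34195, and that of mt-Co1 was 275210. Between astrocytes and culture the counts of the copied genes therefore differ by far more than those of mt-Co1. The handling of reads with more than 1 match is not stated in the labels. For this reason the 6 members mt-Nd3, mt-Nd4l, mt-Co2, mt-Co3, mt-Atp6 and mt-Atp8, called the copied block below, are reported as uncertain. mt-Atp8 lies between mt-Co2 and mt-Atp6 and itself has no copy among the annotated transcripts, but its counts were as low (median 16 in astrocytes). Statements about the mitochondrial genome rest on the other 7, mt-Nd1, mt-Nd2, mt-Nd4, mt-Nd5, mt-Nd6, mt-Cytb and mt-Co1, a set chosen after its counts were seen. mt-Nd6 lies on the opposite strand and overlaps the end of mt-Nd5 at bases 13552 to 13565. Without knowledge of strand in the counting their reads in that overlap cannot be told apart. The median count of mt-Nd6 was 21234 in astrocytes and 424.5 in culture, where mt-Nd5 had 62566 and 61663.5. Whether reads from the other strand were counted as mt-Nd6 was not tested, so its values are less certain.

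On the nuclear side, 77 of the 98 members matched a promoter in the RefSeq table for GRCm38.p6 (250 bases before to 50 after the start). The letters GCGCATGC, the core bound by NRF1, were present on either strand in 15.6% of these members and in 3.05% of all 27025 genes with a promoter. The ETS family core CCGGAAG, read by the GABP factor, was present in 24.7% of members and 9.93% of all genes. CCAAT, bound by NF-Y, was at 45.5% against 41.1%, and the E-box CACGTG, the letters read by MYC family dimers, was at 7.79% against 8.09%. None of these letter strings contains another, and a match is a description of the window, not a binding site. Within 100 bases around the start the shares were 9.09% against 1.56% for the NRF1 core, 19.5% against 5.98% for the ETS core, 10 of the 77 members against 15.6% for CCAAT, and 1 member against 3.39% for CACGTG. Promoters of 3 complex IV subunits named below follow, with motif matches on either strand in capitals. Cox5b (chr1:36691237-36691536, plus strand) and Cox8a (chr19:7217567-7217866, minus strand) rose with age in the O4 libraries. Cox7a1 (chr7:30183921-30184220, plus strand) is an isoform that was higher in astrocytes at a low level.
Cox5b: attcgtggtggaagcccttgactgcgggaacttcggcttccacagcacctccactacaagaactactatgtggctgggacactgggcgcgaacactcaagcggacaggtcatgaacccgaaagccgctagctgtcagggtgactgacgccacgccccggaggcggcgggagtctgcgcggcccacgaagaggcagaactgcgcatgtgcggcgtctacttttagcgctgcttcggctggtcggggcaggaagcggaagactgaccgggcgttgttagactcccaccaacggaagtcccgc
Cox8a: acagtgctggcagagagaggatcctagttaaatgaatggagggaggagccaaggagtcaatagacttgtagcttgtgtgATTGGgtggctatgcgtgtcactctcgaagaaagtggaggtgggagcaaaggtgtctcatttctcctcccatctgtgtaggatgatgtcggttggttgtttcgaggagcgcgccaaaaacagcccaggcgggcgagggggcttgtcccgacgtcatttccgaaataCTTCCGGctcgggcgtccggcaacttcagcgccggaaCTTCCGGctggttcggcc
Cox7a1: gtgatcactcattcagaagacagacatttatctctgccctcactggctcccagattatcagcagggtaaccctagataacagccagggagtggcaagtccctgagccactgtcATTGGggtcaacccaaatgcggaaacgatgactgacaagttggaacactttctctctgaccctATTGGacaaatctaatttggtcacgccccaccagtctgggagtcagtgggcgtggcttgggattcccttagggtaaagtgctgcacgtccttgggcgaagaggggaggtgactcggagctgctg
The Cox5b window holds none of the 4 motifs, the Cox8a window holds CCGGAAG 2 times and CCAAT 1 time, and the Cox7a1 window holds CCAAT 2 times, all of them on the strand opposite to the one printed.

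Total counts per library ran from 6151583 to 20763190 in astrocytes, 9752907 to 18598533 in the O4 libraries, 4145129 to 5612071 in microglia and 30117025 to 37470972 in culture. Per the labels, the first 2 tables share 1 whole-transcript poly(A) kit, microglia were made with a kit that reads the 3′ end, and cultures with another mRNA kit, so levels were not compared across kits. Defining markers were checked as CPM, each gene's share of a library's counts in parts of 1e6, after TMM scaling, which corrects for library composition, summed over each list. The O4 libraries held 77741 to 165942 CPM of 8 oligodendrocyte markers and 463 to 667 CPM of 8 astrocyte markers. The astrocyte libraries held 20294 to 31239 CPM of the astrocyte list and also 15298 to 35235 CPM of the oligodendrocyte list, so the label and the markers do not fully match there. The microglia libraries held 24080 to 42877 CPM of microglia markers, and the cultures 6682 to 8188 CPM of astrocyte markers beside 1513 to 3488 CPM of microglia markers and 2647 to 3893 CPM of mural markers. In all of these bulk libraries, fewer cells of a type and less RNA per cell cannot be told apart.

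The mitochondrial members outweighed the nuclear ones in every library, and the balance between the genomes moved most in the O4 libraries. The nuclear members took 0.468 to 0.607% of counts in astrocytes, 0.434 to 0.468% in the O4 libraries, 0.211 to 0.329% in microglia and 0.620 to 0.818% in culture. The 13 mitochondrial members took 4.39 to 6.50% in astrocytes, 0.805 to 1.34% in microglia and 1.89 to 2.26% in culture. In the O4 libraries they took 2.88 to 3.48% at 3 months and 5.24 to 8.42% at 6 months. These mitochondrial shares include the copied block. Its member mt-Co3 had a median count of 54 in astrocytes, 66.5 in the O4 libraries, 0 in microglia and 33376 in culture. The block thus adds to the culture shares and hardly to the others. The plot of both shares by library shows that nuclear shares of the O4 libraries stayed within a narrow band at both ages while every 6-month mitochondrial share lay above every 3-month share.

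**Figure D1:**
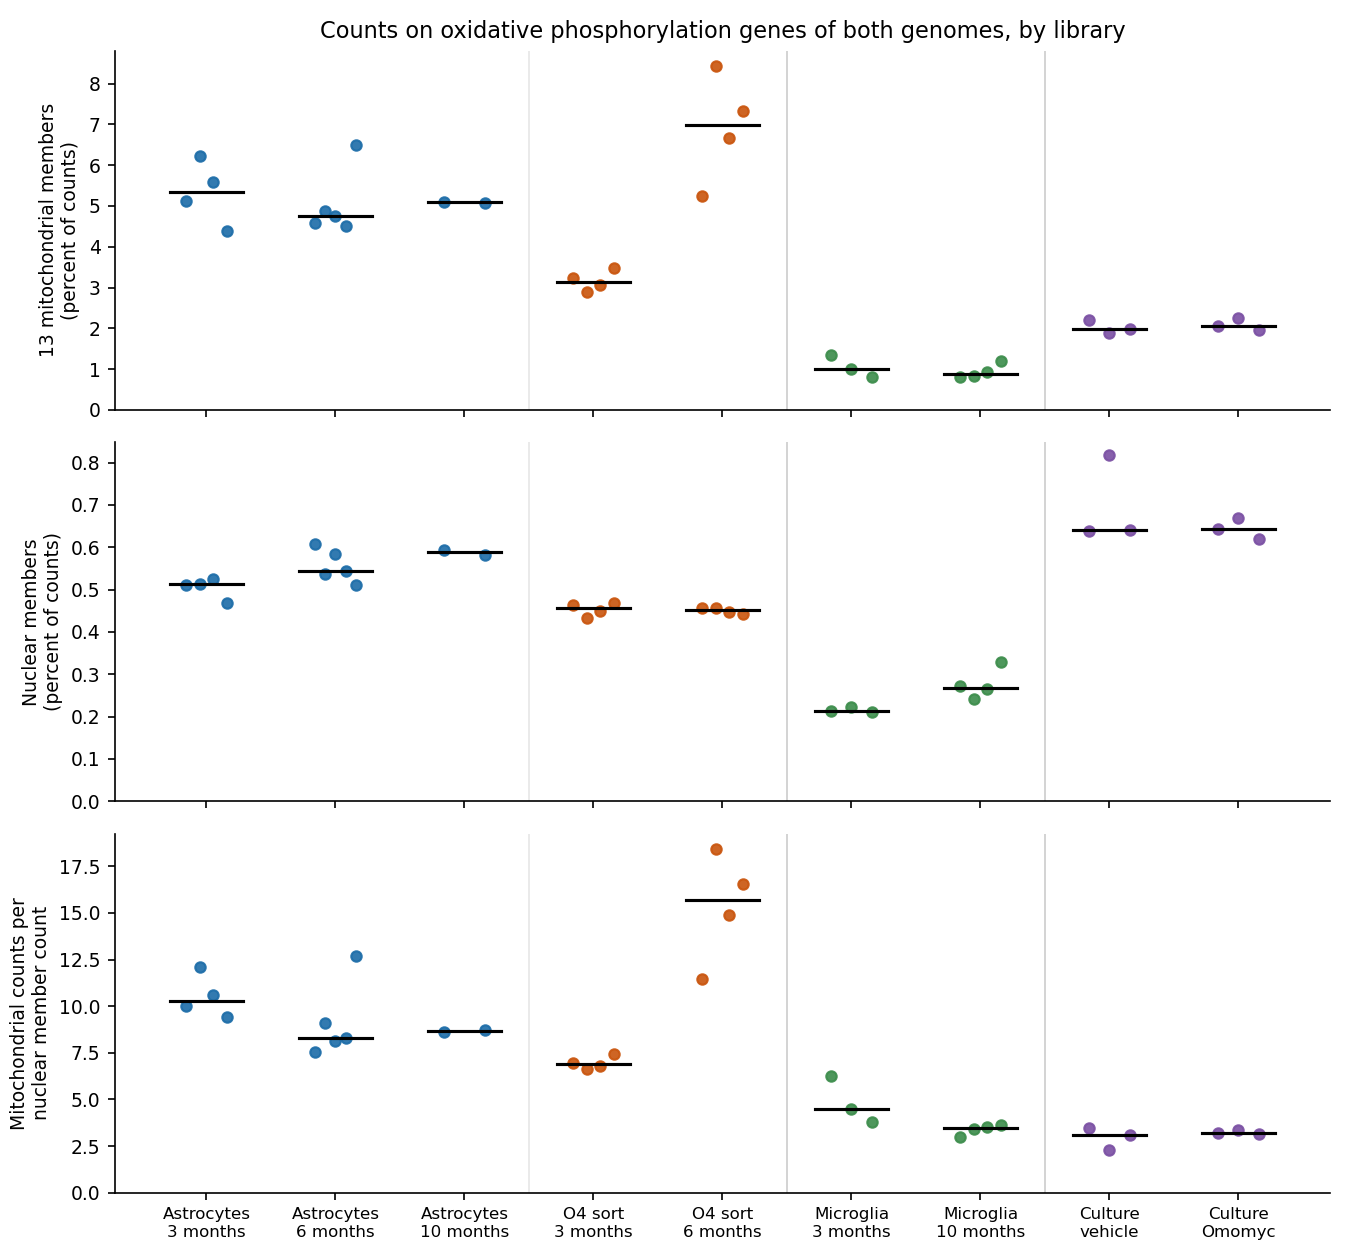
Share of each library's counts on the 13 mitochondrial members (top, percent) and on the nuclear members (middle, percent), and the ratio of the mitochondrial to the nuclear counts (bottom). Each point is 1 library, bars are group medians, and vertical lines part the 4 tables, of which the astrocyte and O4 tables share a kit; the O4 libraries at 6 months lie at ratios of 11.5 to 18.4 and those at 3 months at 6.64 to 7.43.

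As a ratio, each nuclear member count in the O4 libraries was matched by 6.64, 6.88 and 7.43 mitochondrial counts at 3 months (lowest, median and highest of 4) and by 11.5, 15.7 and 18.4 at 6 months. The difference of the mean log2 ratio was 1.12, a 2.17-fold rise, against a pooled SD of 0.21 between libraries of 1 age, and the groups did not overlap. In astrocytes the ratio was 9.40, 10.3 and 12.1 at 3 months (n = 4), 7.55, 8.28 and 12.7 at 6 months (n = 5), and 8.60 and 8.70 in the 2 libraries of 10 months. The 3- and 6-month groups overlapped with a difference of -0.22, and both 10-month values lay below all 3-month values, with a difference of -0.28. Microglial ratios were 3.82, 4.51 and 6.27 at 3 months and 2.98, 3.46 and 3.63 at 10 months, a difference of -0.50 with no overlap. Taken from medians over members in place of sums, the microglial difference was 0.071 and that of 10-month astrocytes -0.47. The copied block was lowest in these libraries, so the median over all mitochondrial members was the value of mt-Nd6. That gene alone had log2 fold changes of 0.41 in microglia and -0.46 in 10-month astrocytes, and its values are less certain. The medians therefore do not check the other mitochondrial members. These ratios are descriptions without a test.

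Levels of different genes can be compared only per length, for which the TPM values, transcript shares scaled by length, that the authors deposited for astrocytes and the O4 libraries were used. The copied block was left out of this ranking, because its reads are uncertain. Among the other mitochondrial members, mt-Co1, the catalytic subunit of complex IV, had the highest level in astrocytes at 3 months. It stood at 37963 ± 4002 TPM (SD, n = 4), close to mt-Cytb, the cytochrome b of complex III, at 37462 ± 5030 TPM. These 2 do not differ beyond their spread. In the O4 libraries of that age mt-Co1 stood at 24766 ± 2864 TPM and mt-Cytb at 21603 ± 1686 TPM. The most abundant nuclear member of astrocytes, the small complex IV subunit Cox8a, had 541 ± 46.7 TPM, followed by Cox6a1 at 510 ± 32.3 TPM and Atp5b, the catalytic beta subunit of complex V, at 428 ± 25.3 TPM. In the O4 libraries the order differed, with Cox6a1 at 718 ± 109 TPM, Cox4i1, the ubiquitous isoform of subunit 4, at 501 ± 52.4 TPM and Cox8a at 423 ± 25.0 TPM.

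Between 3 and 6 months in the O4 libraries, nearly all messages of the mitochondrial genome rose, whereas most nuclear members were not called. Of 102 members tested, 30 were called by edgeR's quasi-likelihood test at a Benjamini-Hochberg adjusted p under 0.05, where 24.4% of all genes tested were called (14.9% higher and 9.46% lower). All 7 mitochondrial members outside the copied block rose, by 0.98 to 1.52 on the log2 scale with a median of 1.21. Of 89 nuclear members tested, 14 rose and 4 fell, with a median of 0.04 where that of all genes was 0.02.

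**Figure D2:**
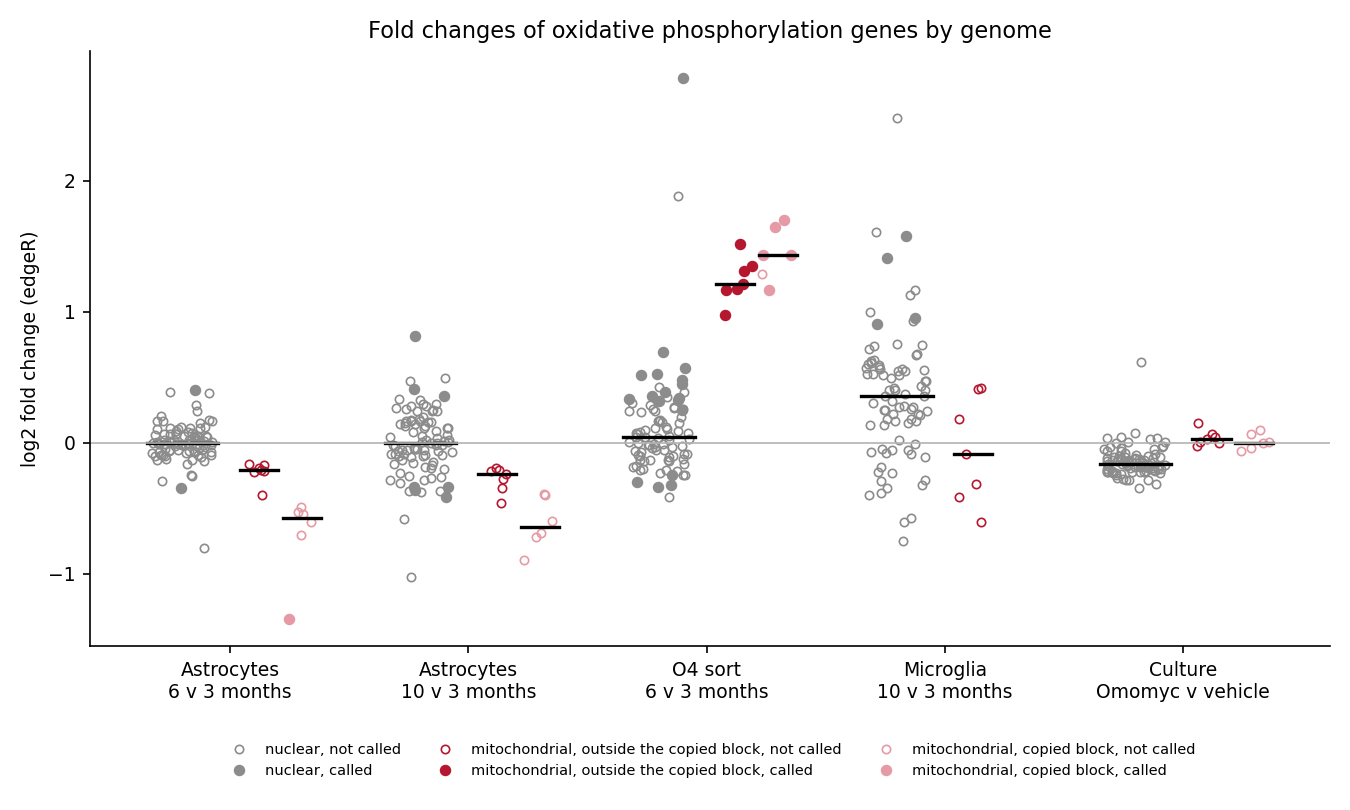
log2 fold change of every tested member in 5 comparisons, from edgeR fits on each whole table. Grey points are nuclear members, dark red points mitochondrial members outside the copied block and pink points members of the block; filled points have an adjusted p under 0.05 and black bars are medians. In the O4 libraries the 7 dark red points lie between 0.98 and 1.52 while the nuclear median is 0.04.

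mt-Co1 stood at 10478, 8358, 9752 and 11083 CPM in the 4 libraries of 3 months and at 16961, 32623, 22729 and 28653 CPM at 6 months. The lowest 6-month library thus lay well above the highest 3-month library, and the fold change was 1.35 ± 0.19 on the log2 scale (SE; edgeR adjusted p = 0.00103). mt-Nd1, a core subunit of the membrane arm of complex I, stood at 5014, 3887, 4908 and 5728 CPM and then at 9053, 15824, 10850 and 12914 CPM. Replicate 1 was the lowest and replicate 2 the highest of the 6-month group for both genes, and the ages did not overlap for either. mt-Cytb went from 6236, 6555, 5710 and 7144 CPM to 10817, 15460, 11956 and 12334 CPM, the smallest rise of the 7 (0.98 ± 0.13, edgeR adjusted p = 0.000676), and mt-Nd2 showed the largest (1.52 ± 0.19, adjusted p = 0.000589). mt-Nd6, annotated as the 1 message of the opposite strand, rose by 1.17 ± 0.14 and its overlapping neighbour mt-Nd5 by 1.18 ± 0.13. The limits on assigning reads to mt-Nd6 by strand, given above, apply here. None of the 7 overlapped between ages, where 26.5% of all genes tested did not overlap. In the copied block 5 of 6 members were called higher, from 1.17 for mt-Co3 to 1.70 for mt-Nd4l, at mean levels of 0.57 to 17.7 CPM. mt-Nd3, at 1.29 ± 0.52, was not called (edgeR adjusted p = 0.0955).

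**Figure D3:**
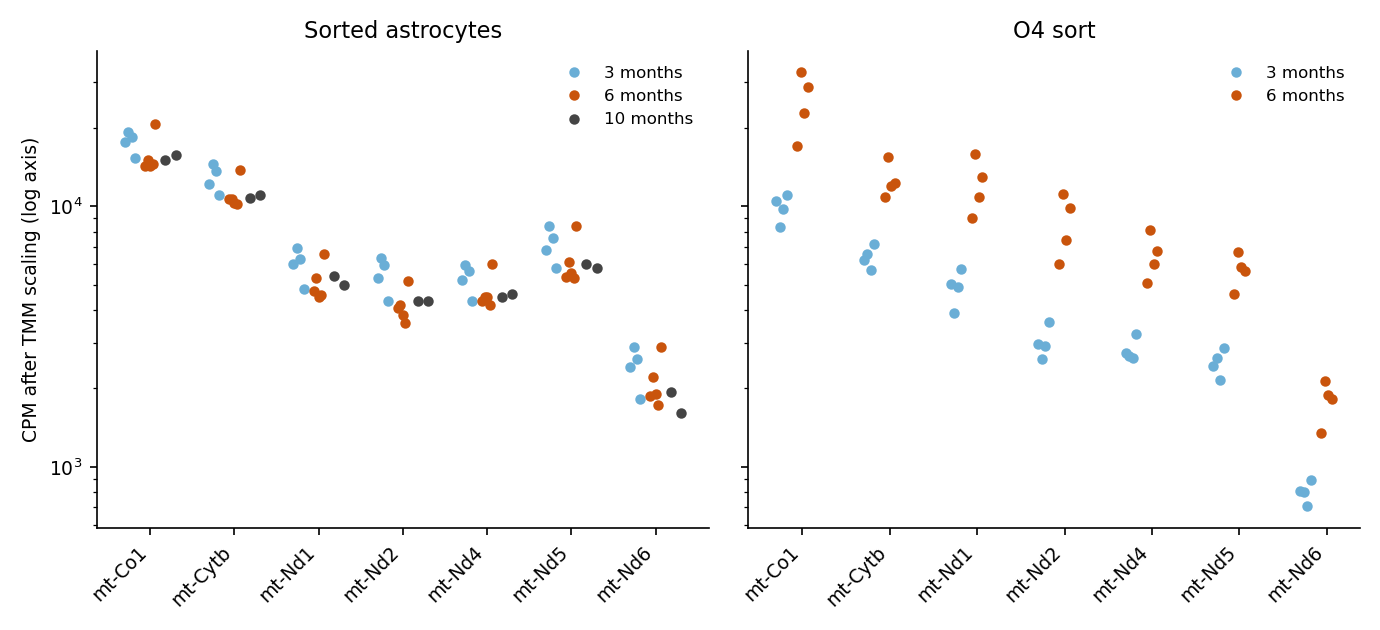
CPM after TMM scaling (log axis) of the 7 mitochondrial members outside the copied block in every astrocyte library (left) and every O4 library (right), coloured by age; each point is 1 library, and the panels were scaled apart. In the O4 libraries all 6-month points lie above the 3-month points of the same gene, and in astrocytes the ages overlap.

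Among the nuclear members of the O4 libraries, 7 of 13 tested subunits of complex IV with Cox symbols rose and none fell, with a median of 0.39. Cox8a stood at 69.8, 63.6, 64.7 and 73.4 CPM at 3 months and at 82.0, 107, 94.1 and 120 CPM at 6 months, a rise of 0.57 ± 0.11 (edgeR adjusted p = 0.0056). Cox7a2l, an isoform of subunit 7a known for joining complexes III and IV, went from 33.8, 35.9, 35.6 and 44.8 CPM to 49.8, 70.7, 51.3 and 71.2 CPM. All 6-month libraries lay above all 3-month libraries for both genes. Cox7a2l rose by 0.70, Cox6a1 by 0.53, Cox5b by 0.45, Cox4i1 by 0.35, Cox6b1 by 0.33 and Cox6c by 0.32. Cox5a, which in these libraries stayed between 20.7 and 25.2 CPM, had a fold change of -0.07 ± 0.08 (edgeR adjusted p = 0.586). The isoforms Cox4i2 and Cox7a1 were too low for the test there, at means of 0.21 and 0.53 CPM at 3 months and 0.99 and 0.69 CPM at 6 months.

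In the other complexes calls went both ways. Members were sorted to complexes by symbol, which puts Ndufa4 and Ndufa4l2 under complex I without settling that they are its subunits. Of 31 tested accessory members so sorted to complex I, 4 rose and 1 fell. None of 8 assembly factors was called, and all 7 nuclear core subunits were at or below -0.01, with Ndufs8, an iron-sulfur subunit, called lower at -0.32. Ndufa12 rose by 0.48, Ndufb9 by 0.52 and Ndufa13 by 0.25, and Ndufa10 fell by 0.25 on the log2 scale; Ndufa13 shares part of its exons with Tssk6 and is less certain. Ndufa4l2, a hypoxia-inducible relative of Ndufa4, had the largest nuclear change at a low level. It stood at 0.42, 0.21, 0.46 and 0.46 CPM at 3 months and 2.19, 1.998, 3.13 and 3.50 CPM at 6 months, without overlap (2.79 ± 0.34, edgeR adjusted p = 0.000451), whereas Ndufa4 itself was at -0.06 ± 0.10. In complex II Sdhd, the small membrane anchor, fell by 0.29, and the catalytic flavoprotein Sdha was at 0.11 ± 0.09 and not called. Uqcrh was the 1 member of 8 called in complex III, higher by 0.39. In complex V, Atp5b (0.33) and Atp5j (0.36) rose and Atp5pb, a subunit of the stator stalk, fell by 0.34, of 18 tested. The 3 genes for the c-ring subunit, Atp5g1, Atp5g2 and Atp5g3, were not called, at 0.07, -0.21 and -0.08.

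Lists of genes around the pathway gave few calls in the same comparison. Of 27 genes of mitochondrial DNA transcription and RNA handling, 1 was higher (Fastkd2, an RNA-binding protein, 0.44) and none lower, with the activator of mitochondrial transcription Tfam at 0.05 ± 0.10 and its RNA polymerase Polrmt at 0.10 ± 0.11. Of 79 mitochondrial ribosome genes tested none rose and 3 fell. Among the genes reported for the TCA cycle, Cs and Pdhx fell (-0.28 and -0.31). Of 14 regulators tested Ppargc1a, a coactivator of mitochondrial genes, rose by 1.01 from a mean of 1.56 to 3.13 CPM, Sirt1 rose by 0.36 and Tfeb fell by 0.35. Both mitochondrial ribosomal RNAs rose as well, mt-Rnr1 by 0.71 and mt-Rnr2 by 0.76.

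Markers of other cells moved with age in the same O4 libraries. All 8 endothelial markers were called higher, with a summed level of 64.2 to 81.4 CPM at 3 months and 233 to 671 CPM at 6 months, as were all 6 tested mural markers, at 42.4 to 88.7 and then 232 to 474 CPM. Of 8 neuronal markers 4 were called higher, and the 6 choroid plexus markers, none called, ran from 36.8 to 910 CPM and then from 298 to 3872 CPM. No defining marker of these lists was at 0 in both groups. Of the 8 oligodendrocyte markers Mbp and Mobp were higher and 5 were lower. Their part in the changes above was not tested. Scaling by library sizes without the mitochondrial genes and the ribosomal RNA fragment CT010467.1 left 12 mitochondrial members higher and gave 11 nuclear members higher and 8 lower. Without replicate 2 of the 6-month group 8 nuclear members were higher and 2 lower, and without replicate 1 of that group 20 were higher and 9 lower. Of 15 alternative settings the call was lost in 8 for Ndufs8, in 6 each for Cox4i1, Atp5b and Ndufa10, in 5 each for Ndufb9 and Sdhd and in 2 for Cox6b1.

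In astrocytes few members were called over the same interval. Of 104 members tested between 3 and 6 months, 3 were called, where 14.6% of all genes were (6.28% higher and 8.29% lower): Atp5l, a small subunit of complex V, at 0.40, and Ndufa3 at -0.34 and mt-Nd4l at -1.34. None of the 7 mitochondrial members outside the copied block was called, and all were below 0, with a median of -0.21. mt-Nd2, at -0.40 (edgeR adjusted p = 0.0649), was called lower in 6 of 17 alternative settings, DESeq2 and limma-voom among them, as well as without replicate 4 of 3 months or replicate 5 of 6 months. mt-Co1 stood at 17585, 19193, 18408 and 15261 CPM at 3 months and at 14216, 15085, 14215, 14524 and 20664 CPM at 6 months, so that replicate 5 of the older group was the highest of all 9. mt-Nd4l belongs to the copied block, at means of 2.41 and 0.93 CPM. Without replicate 3 of the 3-month group none of the 3 was called, and without replicate 3 of the 6-month group 1 was.

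At 10 months, with 2 libraries, 7 nuclear members and none of the 13 mitochondrial members were called against 3 months, where 22.7% of all genes were (11.5% higher and 11.2% lower); 1 mitochondrial member had an unadjusted p under 0.05, and DESeq2 gave 2 such. Cox6b2, an isoform of subunit 6b known from testis, went from 8.84, 7.33, 6.79 and 7.94 CPM to 11.8 and 15.5 CPM. Both 10-month values lay above every 3-month library (0.81 ± 0.21, edgeR adjusted p = 0.0106), but the lower one lay below the highest 6-month library. Ndufa13 (0.41) and Atp5g2 (0.36) were also higher, both less certain because they share sequence with other genes. Ndufa3 (-0.41), Cox7a2 (-0.36), Ndufa4 (-0.34) and Ndufb11 (-0.33) were lower. Groups of 4 and 2 libraries did not overlap for 37 of 91 nuclear members, near the 45.4% of all genes for which this held. Both mitochondrial ribosomal RNAs were lower at 10 months, by 3.37 and 3.46 on the log2 scale, while the messages of the 7 members had a median of -0.24; the ribosomal share was 0.131 and 0.176% of counts against 1.31 to 1.55%, and its part in these values was not tested. Leaving out 1 library of 10 months left 1 call or none, and leaving out replicate 1, 2 or 3 of 3 months left 3, 4 or 4. Between 6 and 10 months none of 104 members was called by edgeR, which called 0.908% of all genes, nor by DESeq2 or limma-voom, which called 609 and 138 of 16189 genes. At an unadjusted p under 0.05 there were 11 members with edgeR, 10 with DESeq2 and 13 with limma-voom. For the unadjusted counts in this paragraph the share of all genes is not given here, so they have no background beside them. The groups did not overlap for 14 of the 104, where 23.2% of all genes did not.

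The difference between the cell types in the 6-month change was tested in 1 fit of all 17 astrocyte and O4 libraries of 3 and 6 months. The age effect of astrocytes minus that of the O4 libraries was called for 18 of 104 members, where 16.4% of all genes were called (6.44% higher and 9.97% lower). It was lower for all 7 mitochondrial members outside the copied block, by 1.10 (mt-Cytb) to 1.83 (mt-Nd2) on the log2 scale, and for 5 of 6 in the block, with mt-Nd3 at -1.91 ± 0.67 (edgeR adjusted p = 0.0547). For mt-Co1 the difference was -1.42 ± 0.25 (edgeR adjusted p = 0.000732). Of 91 nuclear members 3 were lower, Ndufa4l2 (-2.46), Cox4i2 (-2.04) and Cox6a1 (-0.54), and 3 were higher, Sdhd (0.47), Atp5g2 (0.42) and Atp5pb (0.32). All 8 endothelial markers, 7 of 8 mural and 5 of 6 choroid plexus markers were lower in the same test, and their part in it was not tested. Without replicate 1 of the O4 libraries at 6 months the count was 28, with 13 mitochondrial members.

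Astrocytes and the O4 libraries differed in the levels of several subunit isoforms. Over both ages, 64 of 104 members were called between the 9 astrocyte and 8 O4 libraries, where 74.6% of all genes were (38.7% higher in astrocytes and 35.9% lower), with 32 nuclear members higher and 28 lower in astrocytes and a nuclear median of 0.00. Subunit 4 of complex IV is made from Cox4i1 in most tissues and from Cox4i2 in oxygen-sensing and lung cells. Cox4i1 was lower in astrocytes, at 142 ± 12.6 CPM (SD, n = 9) against 255 ± 35.8 CPM (n = 8), and Cox4i2 was higher, at 3.94 ± 0.98 against 0.66 ± 0.51 CPM; neither overlapped, where 39.1% of all genes did not. The fold changes were -0.84 ± 0.07 and 2.90 ± 0.26 (edgeR adjusted p = 6.38e-10 and 2.35e-09). Subunit 6a showed the reverse direction for its minor form: Cox6a1 was at 92.8 ± 6.60 against 177 ± 35.8 CPM, and Cox6a2, the heart and muscle form, at 0.17 ± 0.16 against 1.45 ± 1.88 CPM, where 1 O4 library of 6 months held 6.04 CPM and the other 7 held 0.18 to 1.07 CPM. Cox7a1, the heart and muscle form of subunit 7a, was higher in astrocytes (0.97 ± 0.27) and Cox7a2 (-0.28) and Cox7a2l (-0.97) were lower. Cox7a1 was near the floor, at 0.80 to 2.07 CPM in astrocytes and 0.24 to 1.06 CPM in the O4 libraries, so its groups overlapped. All 8 mural markers were detected in both astrocyte and O4 libraries, and their part in these isoform levels was not tested. Cox5a (0.60) and Cox5b (-0.71) went opposite ways although their proteins sit in the complex in equal number. In all, 5 complex IV subunits with Cox symbols were higher in astrocytes and 8 lower, of 15.

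**Figure D4:**
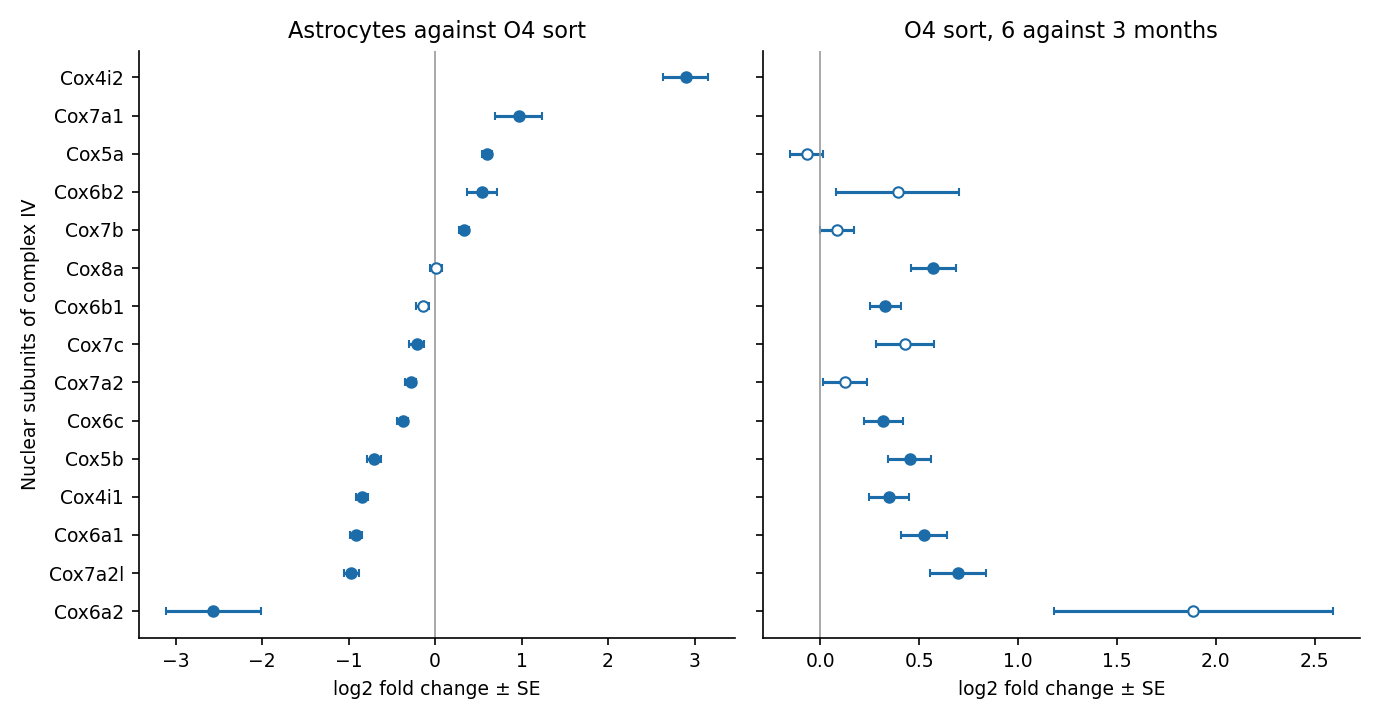
log2 fold change with its SE (edgeR) of the nuclear complex IV subunits with Cox symbols, for astrocytes against O4 libraries over both ages (left) and for 6 against 3 months in the O4 libraries (right); filled points have an adjusted p under 0.05. The subunits spread from -2.56 (Cox6a2) to 2.90 (Cox4i2) between cell types, and Cox4i2 and Cox7a1, too low to be tested in the O4 table, have no point on the right.

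The counts by complex that follow are over both ages, where 74.6% of all genes were called, 38.7% higher in astrocytes and 35.9% lower. Of 31 accessory members sorted by symbol to complex I, 8 were higher in astrocytes and 10 lower, led by Ndufc2 (0.91), Ndufb8 (-0.64) and Ndufb9 (-0.62). Of the 8 assembly factors of complex I 4 were higher and 2 lower. Ndufaf4 was at 21.1, 25.7 and 31.4 CPM (lowest, median and highest) in astrocytes and at 9.09, 11.1 and 12.5 CPM in the O4 libraries, a difference of 1.21 ± 0.09 with no overlap. Ndufaf6, at 4.04 against 1.59 CPM on average, was higher by 1.31, and Ndufaf2 was lower by 0.95 but shares most of its sequence with overlapping transcripts. In complex II, 3 of 4 subunits were higher in astrocytes, with Sdhd at 0.53, while Sdha was at -0.25. In complex III the Rieske protein Uqcrfs1 was higher by 0.57. In complex V the c-ring genes split: Atp5g3 was higher (0.80, 114 ± 9.18 against 65.5 ± 5.32 CPM), Atp5g2 lower (-0.37) and Atp5g1 not called at either age (adjusted p = 0.674 and 0.497 with edgeR at 3 and 6 months); Atp5a1, the alpha subunit, was higher by 0.32. All of the complex IV isoform directions named here held at each age alone, where 65% (3 months) and 70% (6 months) of all genes were called, though Cox6a2 was called only at 6 months, Cox7a1 only at 3 months and Cox7a2 only at 6 months.

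The direction of the mitochondrial genome between the cell types differed between the ages, and the average over both ages gave no single direction. Over both ages mt-Nd5 (0.48) and mt-Nd6 (0.60) were higher and mt-Nd1 (-0.80) and mt-Nd2 (-0.42) lower in astrocytes. At 3 months alone the members outside the copied block ran from -0.07 (mt-Nd1) to 1.23 (mt-Nd6), with mt-Nd2 higher by 0.50 and mt-Co1 by 0.46. At 6 months alone they ran from -1.53 (mt-Nd1) to -0.04 (mt-Nd6), with mt-Nd2 at -1.33 and mt-Co1 at -0.96. At that age mt-Nd5 and mt-Nd6 were not called (edgeR adjusted p = 0.342 and 0.827). The order of the mitochondrial members also differed: at 3 months mt-Nd5 was higher in astrocytes by 1.13 ± 0.17 and mt-Nd6 by 1.23 ± 0.18, while mt-Nd1 was at -0.07 ± 0.18 (edgeR adjusted p = 0.745). Ndufa4l2 also changed sign between the ages, at 2.11 at 3 months and -0.35 at 6 months. Among related genes over both ages, 14 of 18 TCA cycle genes were higher in astrocytes and 1 lower, where 38.7% and 35.9% of all genes were. Suclg2 was at 2.77 and Idh2 at 1.86, and the coactivator Ppargc1a was at 87.7 ± 11.7 against 2.61 ± 1.26 CPM.

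In microglia the nuclear members were higher at 10 than at 3 months in most cases, but few passed the test. Of 90 members tested 4 were called, all nuclear and higher, where 3.21% of all genes were called, 1.94% higher and 1.27% lower. Ndufa5, an accessory subunit of complex I, stood at 15.2, 14.9 and 21.3 CPM at 3 months and at 43.7, 32.4, 42.5 and 63.7 CPM at 10 months, with every older library above every younger one (1.41 ± 0.26, edgeR adjusted p = 0.0117). Ndufb9 rose by 1.58, Atp5k, a small subunit of complex V, by 0.96 and Cox6c by 0.91, and none of the 3 overlapped, where 16.8% of all genes did not. The fold change was above 0 for 63 of 83 nuclear members, with a median of 0.36 where that of all genes was 0.01. The 7 mitochondrial members, with mt-Co1 less certain here, had a median of -0.08 and none was called. Of these mt-Cytb was at -0.60 ± 0.17 (edgeR adjusted p = 0.0707) and mt-Nd5 at 0.42 ± 0.14 (edgeR adjusted p = 0.116). The other 6 had too few counts to be tested. In 5 of 14 alternative settings mt-Cytb was called lower, among them DESeq2, limma-voom and the fit without replicate 3 of 3 months, and mt-Nd1 and mt-Nd5 were called in 2 each. The summed microglia markers lay at 24080 to 29789 CPM at 3 months and at 31449 to 42877 CPM at 10 months. Endothelial markers lay at 52.4 to 63.5 and then 84.9 to 112 CPM, and astrocyte markers at 123 to 140 and then 161 to 182 CPM, and 5 single markers were called higher, Csf1r and C1qb of microglia, Flt1 of endothelium, Slc1a2 of astrocytes and Cspg4 of oligodendrocyte precursors; their part in the result was not tested. Without replicate 1 of the 10-month group none of the 4 calls was made, without replicate 3 there were 2 and without replicate 4 there was 1, while DESeq2 called 11 members.

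In cultured astrocytes no member of either genome was called after 48 h of Omomyc. This held for all 103 members tested with edgeR, DESeq2 and limma-voom, where edgeR called 0.0186% of all genes. With the replicate number as a block, which pairs the cultures, edgeR again called none, where 4.07% of all genes were called (2.23% higher and 1.84% lower). At an unadjusted p under 0.05 there was 1 member without the block (Cox7a1, 0.62 ± 0.25, edgeR adjusted p = 0.779), none with DESeq2 or limma-voom, and 13 with the block, 12 of them lower. The share of all genes under that unadjusted p is not given here, so these counts have no background beside them. The smallest adjusted p with the block was 0.12, for Ndufa13 at -0.29 ± 0.09. The 13 mitochondrial members lay between -0.06 and 0.16 with a median of 0.01.

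Nuclear members were below 0 in 81 of 90 cases, with a median of -0.16, and that median depended on 1 vehicle library. The nuclear members took 0.639, 0.818 and 0.641% of counts in vehicle replicates 1 to 3 and 0.642, 0.670 and 0.620% in Omomyc replicates 1 to 3. Vehicle replicate 2 was the highest of all 6, and without it the median was 0.01. That fit kept Omomyc replicate 2, the highest of its own group. With all libraries and the replicate block the median was -0.14, with 81 of 90 below 0. In the plot of the shares by replicate number, the pair of replicate 2 falls from 0.818 to 0.670%, that of replicate 3 falls less and that of replicate 1 is nearly level. Cox8a, for example, stood at 97.8, 142 and 109 CPM with vehicle and at 94.8, 105 and 97.0 CPM with Omomyc. The mitochondrial share was 2.21, 1.89 and 1.98% with vehicle and 2.05, 2.26 and 1.95% with Omomyc, so the groups overlapped, and vehicle replicate 2 was the lowest of the 6. Groups did not overlap for 5 of 90 nuclear members, where 12.8% of all genes did not overlap.

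**Figure D5:**
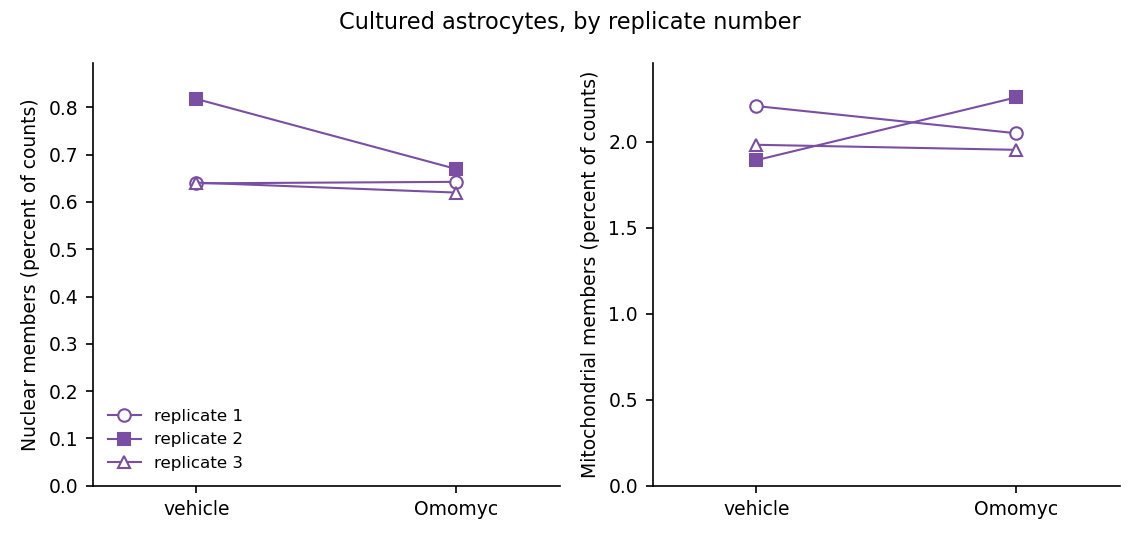
Share of counts (percent) on nuclear members (left) and mitochondrial members (right) in the 6 culture libraries, with lines joining libraries of the same replicate number. Vehicle replicate 2, the filled square, has the highest nuclear share (0.818%) and the lowest mitochondrial share (1.89%).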

How the data were processed

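Poly(A) RNA libraries of sorted glia and cultured astrocytes were analysed from the raw counts per gene that the authors deposited in 4 tables, and levels per length from the TPM that the authors deposited for astrocytes and O4 libraries. Per the submitters' processing notes, STAR 2.7.7a, featureCounts 2.0.1, UMI-tools 1.0.1, fastp and DESeq2 were used, with the builds GRCm39, GRCm38.p6 and mm10; the notes do not tie a build to a table. Identifiers were matched to symbols for 52093 of 53700 microglia and 17559 of 17572 culture genes.

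Each table was fitted whole with edgeR 4.0.16 (R 4.3.3; TMM factors, filterByExpr at a minimum count of 10, robust quasi-likelihood F test, 1 mean per group), and p-values were adjusted by Benjamini-Hochberg over all genes tested; under 0.05 is called. Astrocyte and O4 libraries of 3 and 6 months were joined for comparisons between cell types. The test was also run on simulated data, but the outcome is not given here and no result rests on it. Alternatives were DESeq2 1.42.0, limma-voom (limma 3.58.1), other scalings and filters, a replicate block and leaving out each library. Same-numbered culture libraries deviated together (correlations 0.628, 0.432 and 0.682), so the block is given there. Sequence sharing was counted in 100-base windows of GENCODE vM21 transcripts (GRCm38), and promoters came from RefSeq (GRCm38.p6).

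The members and lists were chosen with earlier results of these data known. Named were all mitochondrial members, up to 10 called nuclear members each way at 5 CPM or more in the higher group by size of fold change, isoform pairs and 1 core subunit per complex; others named in the text were chosen after their values were seen. Not every result on genes outside the members is reported here.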

Additional observations from a re-analysis of the deposited data

Results flagged for a closer look

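Among 191 sets of 4 or 5 values, each a measure in the libraries of 1 group, 11 had 1 library far from the rest by Dixon's criterion, where chance gives about 1 in 20. At 6 months 1 astrocyte library held 6.495% of its counts on mitochondrial members (next 4.881%), and the highest mt-Nd5 there was 8421 CPM. Among astrocytes of 3 months the highest Cox7a2l was 30.1 CPM and the highest Ndufaf2 was 16.6 CPM. In O4 libraries of 3 months the highest values were 63.9 CPM for Ndufb9, 6.49 CPM for mt-Co2 and 289.6 CPM for Sdha. At 6 months the lowest were 21.4 CPM for Cox5a, 2.43 CPM for Cox6b2 and 27.2 CPM for Ndufa4, and the highest Cox6a2 was 5.50 CPM.

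The change from 3 to 6 months differed between astrocytes and O4 libraries by edgeR's test of the difference itself for 18 members. As log2 differences, astrocytes minus O4, these were mt-Nd1 -1.46, mt-Nd2 -1.83, mt-Nd4 -1.30, mt-Nd4l -2.96, mt-Nd5 -1.30, mt-Nd6 -1.28, mt-Cytb -1.10, mt-Co1 -1.42, mt-Co2 -1.84, mt-Co3 -1.62, mt-Atp6 -1.96 and mt-Atp8 -2.09. The nuclear ones were Ndufa4l2 -2.46, Cox4i2 -2.04, Cox6a1 -0.54, Sdhd 0.47, Atp5g2 0.42 and Atp5pb 0.32.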

How the results depend on the processing

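With 1 library left out at a time, the members called ran from 22 to 42 in O4 libraries (30 with all), 0 to 4 in astrocytes at 6 against 3 months (3), 0 to 7 at 10 against 3 (7), 0 to 6 in microglia (4), 58 to 67 between astrocytes and O4 libraries (64) and 16 to 28 for the test of their age effects (18, with 26 without astrocyte replicate 5 of 6 months); 10 against 6 months and Omomyc stayed at 0. The log2 ratio of the genomes ran from 1.02 to 1.25 in O4 libraries, -0.35 to -0.15, -0.33 to -0.21 and -0.12 to 0.07 in astrocytes (6 against 3, 10 against 3 and 10 against 6 months), -0.66 to -0.30 in microglia and -0.01 to 0.27 for Omomyc. Without a filter on low counts 4 members were called in astrocytes at 10 against 3 months and 10 in microglia, where DESeq2 called 11. From medians over members the ratio was -0.47 for astrocytes at 10 against 3 months and 0.071 for microglia, where the mitochondrial median was the value of mt-Nd6. Between cell types 48 members were called at 3 months only. Signs turned at 3 months for mt-Nd2 (0.50), mt-Nd4 (0.55), mt-Co1 (0.46), mt-Co3 (0.74) and mt-Atp6 (0.74), and at 6 months for Ndufa4l2 (-0.35), mt-Nd4l (-1.30), mt-Nd5 (-0.17), mt-Nd6 (-0.043) and mt-Cytb (-0.46). Both single-age contrasts came from the joined fit, and their difference is the tested difference in age effect given above. The cause of that difference was not tested. With the replicate block the counts were 4, 6 and 0 in astrocytes, 27 in O4 libraries, 3 in microglia, 64 between astrocytes and O4 libraries, 21 for the test of their age effects and 0 for Omomyc; outside the culture the numbers do not pair the libraries (correlations -0.121 to 0.176 in O4 libraries, -0.088 to 0.13 in astrocytes of 3 and 6 months). Microglia were the least deep libraries, with 4145129 to 5612071 counts. The 6 mitochondrial members that could not be tested there were those of the copied block, while mt-Nd4 had a median count of 15097.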

Other observations

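Genes around the pathway differed between astrocytes and O4 libraries of 3 and 6 months in both directions. Cs, the citrate synthase that opens the TCA cycle, was at 385 against 158 CPM on average (log2 difference 1.30), and Chchd10, a protein of the space between the mitochondrial membranes, at 103 against 6.85 CPM (4.06). Cox10, which makes the heme A of complex IV, was higher in astrocytes by 2.43 and Cyc1, the cytochrome c1 of complex III, by 0.64. Of 46 tested electron carriers and assembly factors outside the symbol rule 18 were higher and 11 lower, and of 79 mitochondrial ribosome genes 25 were higher and 21 lower, where 74.6% of all genes were called.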
